A study of Mus musculus with 16 samples.

Results

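The 10 genes followed here across 4 kinds of ganglion of uninjured mice are ones that sensory neurons switch on or raise after axon damage: Atf3, Jun, Sprr1a, Sox11, Gap43, Gadd45a, Csf1, Ecel1, Flrt3 and Stmn4. They were taken by symbol, 10 of 22609 gene symbols counted, and the set was chosen by a measured value, the higher Atf3 counts of T10-L1 DRG over L3-L5 DRG. The values of that pair of ganglia are therefore given as a description, with no test. Cells came from adult naive C57BL/6J mice, given as male, that carry one Pirt cre allele and one Rosa26 LSL-tdTomato allele, here called Pirt/TdTomato. Reads on sex-linked genes, given below, do not bear out that sex. In these mice Pirt, a gene of sensory neurons, drives Cre recombinase, and the recombined cells make the red protein TdTomato. All 4 groups share this genotype and the same handling, in which ganglia of both sides were digested with enzymes and bright TdTomato cells were sorted by FACS in consecutive cycles. The groups were the trigeminal ganglion (TG), the nodose and jugular ganglion complex (NG/JG), the lumbar dorsal root ganglia L3-L5 (L3-L5 DRG) and the thoracolumbar ganglia T10-L1 (T10-L1 DRG), each with 4 libraries and 16 in all. No group had a nerve injury before the ganglia were taken. Dissection itself cuts the axons of these neurons, and the part of dissection and digestion in the levels was not tested.

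Axon damage in a peripheral sensory neuron sets off a transcription programme in its cell body that precedes regrowth. Kinases that sense the damage activate the AP-1 family factor Jun, and Atf3, a factor of the ATF family that pairs with Jun proteins, is hardly made in resting sensory neurons and is widely used as a marker of those with a cut axon. Sox11 is a further transcription factor of regrowth, while Gadd45a responds to stress and DNA damage. Among the products, Sprr1a, Gap43 and Stmn4 act on the cytoskeleton or the growth cone, Flrt3 is a membrane protein of cell adhesion, Ecel1 is a neuronal membrane protease, and Csf1 is a secreted cytokine that acts on macrophages and microglia. Several of these genes, Atf3 and Jun among them, also respond within hours to cell stress of other kinds, as immediate-early genes such as Fos do.

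The 8 members with a promoter window in RefSeq (build GRCm38.p6) were searched for the letters that AP-1 and CREB/ATF factors are known to bind, and the 5 windows that held a match are shown because Atf3 and Jun are themselves such factors. Each window runs 5′ to 3′ on the gene's strand, which is the minus strand for all 5, from 250 bases before to 50 bases after the annotated start, and capitals mark the matches. They are chr1:191183284-191183583 for Atf3, chr4:95052173-95052472 for Jun, chr2:140671427-140671726 for Flrt3, chr12:27342669-27342968 for Sox11 and chr3:92485832-92486131 for Sprr1a.
Atf3: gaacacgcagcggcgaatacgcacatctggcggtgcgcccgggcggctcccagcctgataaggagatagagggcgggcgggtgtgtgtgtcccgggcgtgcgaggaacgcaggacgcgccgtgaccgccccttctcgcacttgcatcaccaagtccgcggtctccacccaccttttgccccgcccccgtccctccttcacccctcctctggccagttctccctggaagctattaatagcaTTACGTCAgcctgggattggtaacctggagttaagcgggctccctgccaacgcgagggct
Jun: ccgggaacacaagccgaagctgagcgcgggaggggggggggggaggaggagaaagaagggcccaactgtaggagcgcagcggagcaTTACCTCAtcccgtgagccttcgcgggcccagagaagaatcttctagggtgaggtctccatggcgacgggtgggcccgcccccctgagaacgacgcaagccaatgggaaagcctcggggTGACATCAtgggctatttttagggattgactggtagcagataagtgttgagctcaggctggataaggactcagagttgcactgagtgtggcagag
Flrt3: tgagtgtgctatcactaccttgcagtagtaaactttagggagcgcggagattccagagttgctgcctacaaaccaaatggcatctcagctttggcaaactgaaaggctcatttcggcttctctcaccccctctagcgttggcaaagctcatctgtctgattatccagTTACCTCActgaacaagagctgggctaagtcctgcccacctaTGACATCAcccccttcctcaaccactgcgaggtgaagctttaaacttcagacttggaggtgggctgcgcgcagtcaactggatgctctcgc
Sox11: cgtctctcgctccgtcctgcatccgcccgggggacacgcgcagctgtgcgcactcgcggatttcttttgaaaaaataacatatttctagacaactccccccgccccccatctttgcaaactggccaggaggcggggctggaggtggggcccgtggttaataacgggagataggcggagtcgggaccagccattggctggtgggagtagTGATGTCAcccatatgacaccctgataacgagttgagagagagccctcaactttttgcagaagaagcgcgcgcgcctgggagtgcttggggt
Sprr1a: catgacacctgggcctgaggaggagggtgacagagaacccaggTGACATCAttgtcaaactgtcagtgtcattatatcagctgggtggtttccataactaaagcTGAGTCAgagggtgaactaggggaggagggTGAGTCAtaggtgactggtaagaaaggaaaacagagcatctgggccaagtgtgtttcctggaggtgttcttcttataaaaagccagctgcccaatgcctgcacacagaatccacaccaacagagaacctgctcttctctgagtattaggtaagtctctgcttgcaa
Both strands were searched. TGANTCA, the AP-1 element, was held by 1 of the 8 member windows, that of Sprr1a with 2 matches, and by 7.81% of all 32851 windows. TGACGTCA, the CRE, was held by 0 member windows and 1.79% of all windows. A further 3 spellings were chosen after the windows had been read. Their presence in member windows was fixed by that choice, so the shares of all windows beside them give no test. TGACATCA, which differs from the CRE at one letter, stood in the windows of Jun, Flrt3, Sox11 and Sprr1a (4 of 8, against 3.62% of all windows). In Jun, Flrt3 and Sox11 it began 45, 41 and 42 bases before the start, and in Sox11 it lies on the opposite strand and is printed as TGATGTCA. TTACGTCA stood 10 bases before the Atf3 start (0.499% of all windows) and TTACCTCA in the windows of Jun and Flrt3 (0.889%). None of the spellings overlap each other in the windows shown. The windows of Gadd45a, Csf1 and Ecel1 held none of the 5 spellings, and no window was found for Gap43 and Stmn4. A match is a run of letters and does not show binding.

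Libraries had 4735624 to 13333318 reads on genes (median 8332661), and 3 counts, the level below which a gene was treated as at the floor, corresponded to 0.225 to 0.633 CPM (counts scaled to the reads on genes). Without molecular identifiers, this floor allows for counting error and nothing else. Summed over 10 markers of sensory neurons, libraries had 1158 to 11917 CPM, whereas 8 markers of satellite glial cells, the cells that wrap the neuron body, summed to 13321 to 64299 CPM. The sorted cells therefore carried glial RNA in every library. L3-L5 DRG 4 stood apart, with 66.6% of its uniquely aligned reads outside genes. Although the labels give male mice, all 16 libraries had 1279 to 8362 reads on Xist and 0 had a read on any of 13 genes of the Y chromosome. The reads therefore do not bear out the stated sex. Nothing in the labels says that the libraries of a group came from different animals, so p-values measure the spread between these libraries, which may be technical.

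The members spanned more than 3 orders of magnitude. On the RPKM scale, which divides CPM by the annotated exon length and so allows levels of different genes to be compared, T10-L1 DRG had mean levels of 1057 ± 638 for Atf3 and 886 ± 419 for Jun (SD, n = 4). Next came Gap43 at 43.8 ± 21.2, Flrt3 at 30.4 ± 18.2 and Gadd45a at 26.1 ± 21.1 RPKM, and then Csf1 at 5.28 ± 1.57. Stmn4 at 1.65 ± 0.996 and Sox11 at 1.61 ± 0.488 RPKM were low, and Sprr1a and Ecel1 lay under 1 RPKM in all 4 kinds of ganglion. The 2 transcription factors Atf3 and Jun were the highest members in all 4 kinds of ganglion by mean RPKM, and the neighbours Gap43, Flrt3 and Gadd45a did not differ in T10-L1 DRG beyond their SD.

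**Figure D1:**
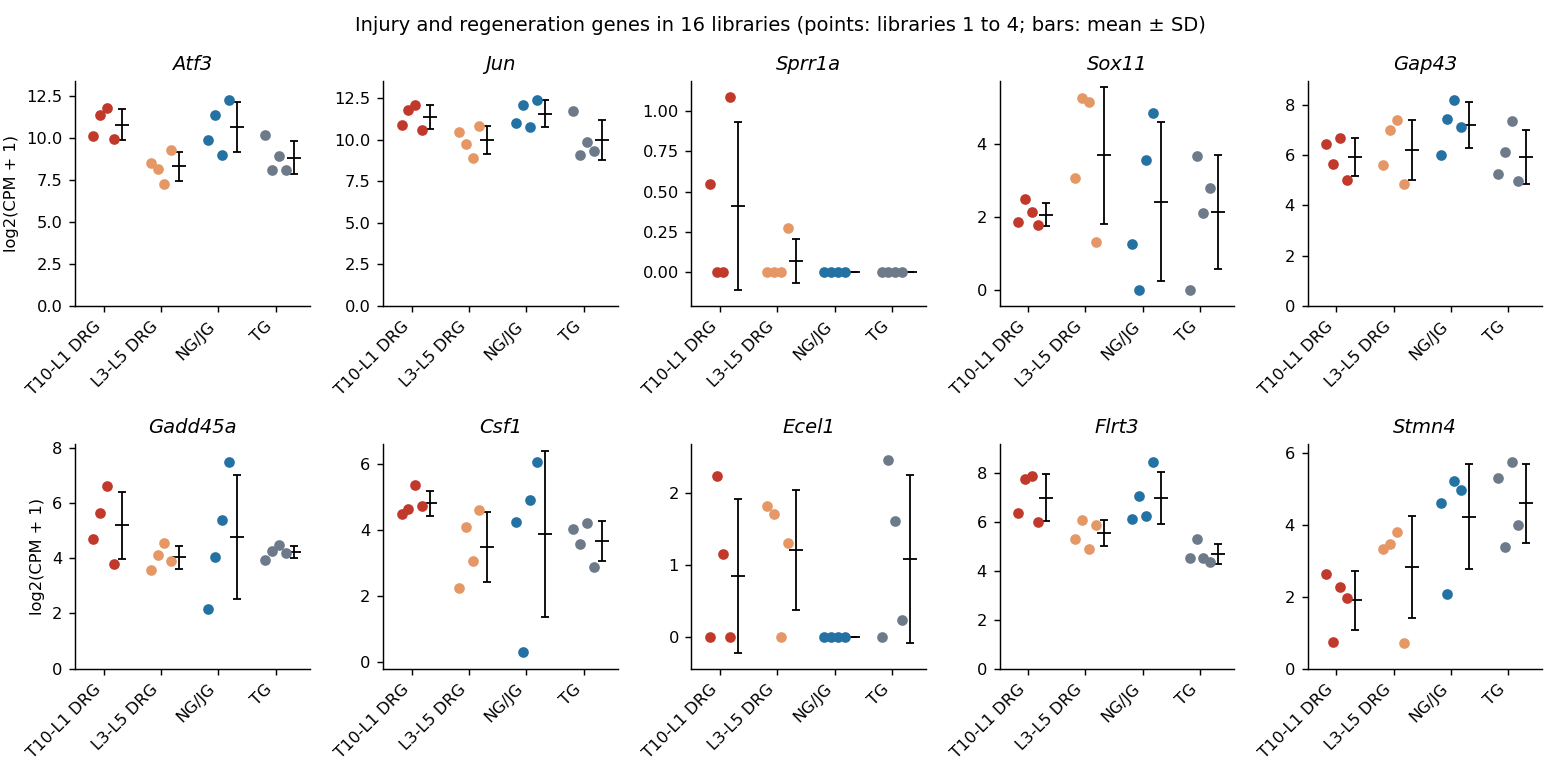
Levels of the 10 members in each library, as log2(CPM + 1) on the y axis, by kind of ganglion on the x axis; points are libraries 1 to 4 and bars the mean ± SD of the 4. Atf3 of T10-L1 DRG (986 to 3595 CPM) lies above that of L3-L5 DRG (155 to 638 CPM) with no overlap, Stmn4 of T10-L1 DRG lies below that of TG, and Sprr1a is near 0 throughout.

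Atf3 (chr1:192994175-193007219, minus strand, mm9) was read in every library, from 155 to 5091 CPM, a range of 32.9-fold. T10-L1 DRG libraries 1 to 4 had 1115, 2696, 3595 and 986 CPM, and L3-L5 DRG libraries had 363, 288, 155 and 638 CPM. Every T10-L1 DRG library was above every L3-L5 DRG library. NG/JG libraries had 948, 2744, 505 and 5091 CPM, and TG libraries had 1167, 270, 503 and 276 CPM. NG/JG covered the range of T10-L1 DRG on both sides, and TG overlapped L3-L5 DRG apart from TG 1. By mean the order was NG/JG (2322 ± 2084), T10-L1 DRG (2098 ± 1265), TG (554 ± 423) and L3-L5 DRG (361 ± 204 CPM; SD, n = 4), and NG/JG and T10-L1 DRG differed by less than either SD, as did TG and L3-L5 DRG.

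Jun (chr4:94715725-94718913, minus strand, a gene of 1 exon), the AP-1 partner of Atf3, ran in parallel. Its levels were 1886, 3555, 4332 and 1531 CPM in T10-L1 DRG libraries 1 to 4, and 1406, 865, 480 and 1779 CPM in L3-L5 DRG. NG/JG had 2070, 4374, 1695 and 5422 CPM, and TG had 3317, 541, 932 and 628 CPM. T10-L1 and L3-L5 DRG overlapped through L3-L5 DRG 4, which exceeded T10-L1 DRG 4, and TG 1 stood well above the other 3 TG libraries. The ratio of Atf3 to Jun in CPM was 0.591 to 0.830 in T10-L1 DRG but 0.258 to 0.359 in L3-L5 DRG, so Atf3 was the more unequal of the pair. The ratio was 0.298 to 0.939 in NG/JG and 0.352 to 0.539 in TG. An uncounted transcript on the other strand, BC042782, shares 232 bases of the Jun exon, and without a stated strand setting its reads cannot be told from those of Jun.

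Flrt3 (chr2:140476650-140497205, minus strand) lies inside Macrod2, which is on the other strand. It had 81.2, 214, 234 and 62.3 CPM in T10-L1 DRG, and 38.0, 66.0, 29.1 and 57.4 CPM in L3-L5 DRG. NG/JG had 69.3, 133, 74.6 and 347 CPM and TG 21.7, 38.4, 22.2 and 19.8 CPM. The 4 TG libraries were all below the 4 of NG/JG and the 4 of T10-L1 DRG, and L3-L5 DRG was below NG/JG. T10-L1 and L3-L5 DRG overlapped by 1 library each.

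Gadd45a, a stress sensor, and Csf1, the macrophage cytokine, had wide ranges in NG/JG. Gadd45a was 3.48, 15.4, 40.5 and 177 CPM in NG/JG but 14.5, 18.3, 21.1 and 17.4 CPM in TG. It was 24.9, 49.1, 96.9 and 12.9 CPM in T10-L1 DRG and 10.8, 16.3, 22.3 and 13.9 CPM in L3-L5 DRG. Thus TG was the most even group and NG/JG held both the lowest and the highest library. E230016M11Rik, a noncoding gene on the other strand, shares 337 bases of the Gadd45a exons, which makes its counts uncertain in the same way as those of Jun. Csf1 was 18.1, 0.228, 29.3 and 65.8 CPM in NG/JG, 15.5, 10.8, 17.7 and 6.32 CPM in TG, 21.6 to 39.9 CPM in T10-L1 DRG and 3.70, 15.9, 7.42 and 23.4 CPM in L3-L5 DRG. Only 2 reads stood behind the value of NG/JG 2, while all 4 T10-L1 DRG libraries were above all 4 of TG. NG/JG 4 was the highest of all 16 libraries for Atf3, Jun, Flrt3, Gadd45a and Csf1.

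The growth-cone and cytoskeletal members had another order. Gap43, which growing axons carry at their tips, was 86.1, 48.9, 101 and 31.2 CPM in T10-L1 DRG, 47.9, 127, 169 and 28.1 CPM in L3-L5 DRG, 63.4, 174, 297 and 137 CPM in NG/JG and 37.1, 68.9, 166 and 30.2 CPM in TG. All 4 groups overlapped. Stmn4, a stathmin that binds tubulin, was 5.20, 0.666, 3.86 and 2.93 CPM in T10-L1 DRG, 9.05, 10.1, 13.1 and 0.633 CPM in L3-L5 DRG, 23.7, 3.19, 36.8 and 30.7 CPM in NG/JG and 38.5, 9.44, 52.7 and 15.1 CPM in TG. The cranial ganglia had the higher values, with NG/JG 2 and L3-L5 DRG 4 as the low libraries of their groups. Sox11 was 2.60, 4.57, 3.37 and 2.40 CPM in T10-L1 DRG, 7.39, 37.1, 34.3 and 1.48 CPM in L3-L5 DRG, 1.39, 0, 10.8 and 27.7 CPM in NG/JG and 0, 11.6, 3.26 and 5.97 CPM in TG. It was low and even in T10-L1 DRG and reached its highest level in L3-L5 DRG 2 and 3, which were 2 of the 3 libraries with the highest Gap43 outside NG/JG.

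Ecel1, the protease, was listed at 0 in all 4 NG/JG libraries and reached at most 4.52 CPM, in TG 2. Against the floor of 3 counts per library of NG/JG, mean Ecel1 was at least 4.56-fold higher in TG, at least 4.24-fold in L3-L5 DRG and at least 3.33-fold in T10-L1 DRG. Single libraries set these bounds, which fell to 2.01-fold without TG 2, 3.38-fold without L3-L5 DRG 1 and 1.11-fold without T10-L1 DRG 2. Each of those 3 groups also held at least 1 library at 0. NG/JG libraries had a read on 10132 to 13029 genes, against 13617 to 18571 in the DRG groups and 11527 to 15354 in TG. The bounds allow for counting error alone, not for transcripts lost before sequencing. Sprr1a, a small proline-rich protein that is a strong product of cut axons, had 0 reads in 13 of 16 libraries, with 15 reads in T10-L1 DRG 4, 3 in T10-L1 DRG 1 and 1 in L3-L5 DRG 4. It passed edgeR's filter on low counts in no comparison. T10-L1 DRG 4, with the most Sprr1a reads, had the lowest Atf3 and the lowest Jun of its group.

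Between T10-L1 and L3-L5 DRG, the pair in view when the genes were chosen, log2 fold changes of T10-L1 over L3-L5 DRG were 2.59 for Atf3, 1.66 for Flrt3, 1.56 for Gadd45a, 1.37 for Jun and 1.19 for Csf1. They were -0.33 for Ecel1, -0.47 for Gap43, -1.35 for Stmn4 and -2.64 for Sox11. Of the 9 members that passed the filter, 5 were above 0, beside 48.2% of all 13550 genes. Libraries did not overlap for Atf3 alone, with T10-L1 DRG higher, as for 1.53% of all genes. In this pair edgeR's quasi-likelihood test gave 0% of genes an adjusted p below the threshold of 0.05 (823 genes at an unadjusted p under 0.05), DESeq2 0.4% (78 genes) and edgeR's likelihood-ratio test 0.133% (18 genes). The stress-responsive Atf3, Jun and Gadd45a, with Flrt3 and Csf1, were thus on one side, and Gap43, Stmn4, Sox11 and Ecel1 on the other. The sides of Gap43 and Ecel1 rested on single libraries, as Gap43 was at 0.015 without L3-L5 DRG 3, and Ecel1 was at 0.073 without T10-L1 DRG 1, at 0.094 without T10-L1 DRG 4 and at -1.80 without T10-L1 DRG 2. Immediate-early genes moved the same way as Atf3: 12 of 12 were above 0, with a median of 1.36 beside -0.03 over all genes, and they summed to 14534 to 29792 CPM in T10-L1 DRG against 2419 to 14751 CPM in L3-L5 DRG. Markers of sensory neurons moved the other way, with 10 of 10 below 0, a median of -1.07 and sums of 2078 to 4416 CPM (T10-L1 DRG) against 1801 to 11917 CPM (L3-L5 DRG). Macrophage markers had 10 of 10 above 0, with sums of 834 to 17149 CPM (T10-L1 DRG) against 84.5 to 7406 CPM (L3-L5 DRG), and all 10 were read in every library of both groups. T10-L1 DRG 4 and L3-L5 DRG 1 set the upper ends, with at most 1078 and 909 CPM in the other libraries of each group. Other lists leaned the same way, with neutrophil genes at 7 of 7 above 0, fibroblast 6 of 6, oligodendrocyte 3 of 3, satellite glial 6 of 7 and endothelial and mural 6 of 8. Schwann cell genes had 2 of 7 above 0. In such bulk samples fewer cells of a type and less RNA per cell cannot be told apart, and the part of these lists in the values of Atf3 was not tested.

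**Figure D2:**
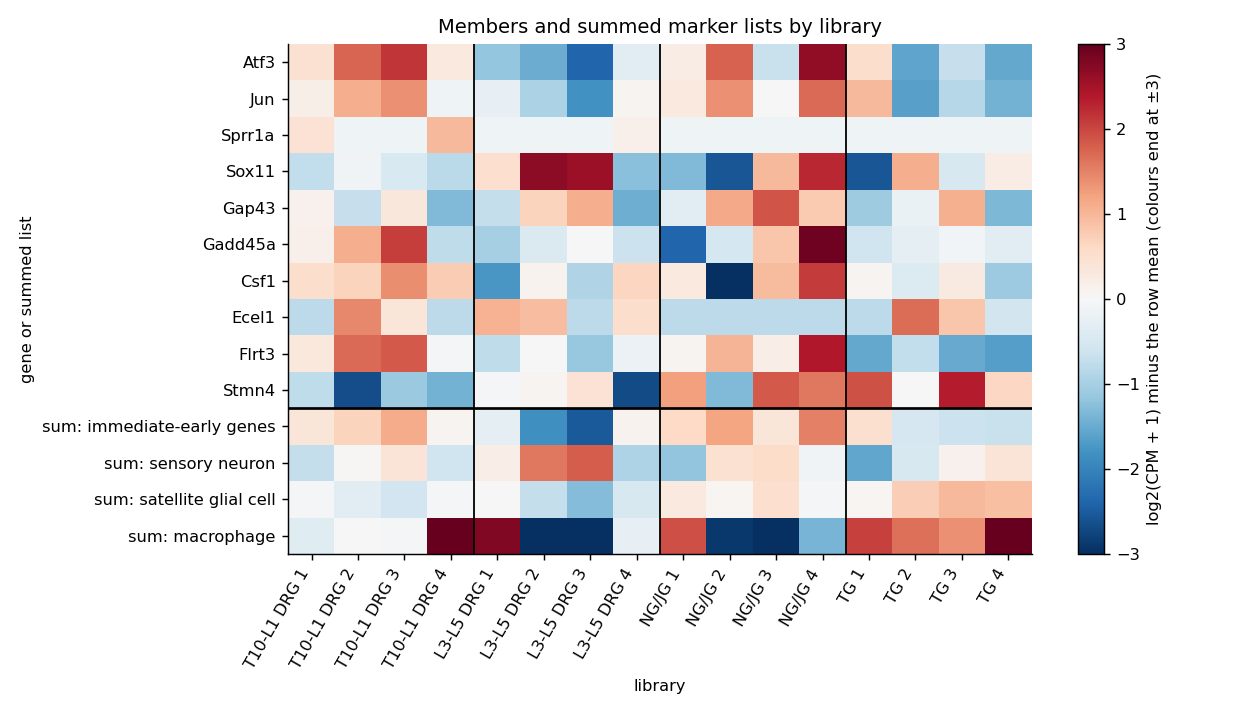
Each row is a member, or the summed CPM of a marker list, and each column a library. Colours give log2(CPM + 1) minus the row mean, from blue (lower) to red (higher). Atf3, Jun and the summed immediate-early genes are high in the same libraries, T10-L1 DRG 2 and 3 and NG/JG 2 and 4, and low in L3-L5 DRG 2 and 3, where Sox11 and the summed neuron markers are high.

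Across the 16 libraries, the genes whose log2(CPM + 1) ran most like that of Atf3 among 14235 other genes were Nfil3, Nop58, Arid5a, Klf6 and Pde4b, leaving out members. Spearman's rho was 0.98 for Nfil3 and Pearson's r was 0.96, or 0.94 without NG/JG 4 and L3-L5 DRG 3, the 2 libraries farthest from the median of Atf3. The rho of the other 4 was 0.95 to 0.97. Of the members, Jun stood as high (rho 0.97, r 0.95), followed by Flrt3 (0.72 and 0.81), Csf1 (0.54 and 0.30) and Gadd45a (0.28 and 0.52). Gap43 was at 0.05 and 0.03. Stmn4 was at -0.22 and -0.24, Ecel1 at -0.35 and -0.19 and Sox11 at -0.49 and -0.40. Without NG/JG 4 and L3-L5 DRG 3, r was 0.93 for Jun, 0.74 for Flrt3, 0.40 for Gadd45a, 0.063 for Csf1, -0.44 for Stmn4 and -0.62 for Sox11, so the r of Csf1 rested on those 2 libraries. The immediate-early genes Fos and Egr1 had rho of 0.94 and 0.92, and the sorting gene Pirt had -0.55. These values describe 16 libraries that share 4 kinds of ganglion, their depth and their glial RNA. Among them are the T10-L1 and L3-L5 DRG libraries whose Atf3 difference chose the set, so likeness to Atf3 is not independent of that choice. Nfil3 and Klf6 are also on the list of injury transcription factors used below.

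The first test asked whether members differ between spinal ganglia (both DRG groups, weighted alike) and cranial ganglia (TG and NG/JG), which does not use the difference that chose them. By edgeR's quasi-likelihood test 0 of 9 members passed, at an adjusted p of 0.05, beside 1.46% of 14236 genes (208 genes). The number of all genes called was itself unstable, at 9 to 20 without TG 2, 3 or 4, 16 to 68 without any 1 T10-L1 DRG library, 26 to 168 without any 1 of L3-L5 DRG, 173 to 545 without any 1 of NG/JG and 690 without TG 1. Stmn4 came closest, at 0.633 to 13.1 CPM (median 4.53) in the 8 spinal libraries and 3.19 to 52.7 CPM (median 27.2) in the 8 cranial ones. Its log2 fold change was -2.59 ± 0.76 (SE), with adjusted p = 0.085 by that edgeR test, 0.0013 by DESeq2 and 0.0136 by edgeR's likelihood-ratio test. It was the 1 member called by DESeq2 (6.65% of genes) and by the likelihood-ratio test (6.57%), and the 1 member at an unadjusted p under 0.05 in the quasi-likelihood test (16.4%). The groups overlapped through NG/JG 2 and TG 2. Gap43 stood at -0.76 ± 0.47 and Atf3 at -0.64 ± 0.47, and Flrt3 at 0.11 ± 0.41 was nearly level. Ecel1 was the furthest of the 2 members above 0, at 2.85 ± 1.40 (adjusted p = 0.330, edgeR), with the 4 NG/JG libraries at 0. Its mean was 1.69 CPM in TG, 1.57 CPM in L3-L5 DRG and 1.24 CPM in T10-L1 DRG, so this fold change rests on NG/JG. Of the 9, 7 were below 0, beside 46.3% of all genes, and Sox11 was among them with TMM or RLE factors but not with library size alone.

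The listed genes of the same programme were as mixed. Of 11 tested peptides, cytokines and receptors of injury, Lifr, a subunit of the LIF receptor, rose in spinal ganglia (1.39 ± 0.29, adjusted p = 0.030, edgeR) and Tnfrsf12a, the TWEAK receptor, fell (-1.99 ± 0.48, adjusted p = 0.047, edgeR). Lifr was 404 to 1627 CPM in spinal and 106 to 442 CPM in cranial libraries, with some overlap. Of 12 genes of axon damage signalling, Sarm1, the NAD-consuming executor of axon degeneration, rose (4.66 ± 0.96, adjusted p = 0.030, edgeR) and Ddit3, a factor of the stress response of the endoplasmic reticulum, fell (-1.45 ± 0.31, adjusted p = 0.033, edgeR). Sarm1 had a median of 23.9 CPM in spinal and 0.298 CPM in cranial libraries, with overlap. That cranial median lies within the range of the floor of 3 counts (0.225 to 0.633 CPM), so the size of this rise is uncertain. NG/JG libraries had at most 0.341 CPM of Sarm1, while TG had a median of 6.03 CPM. None of these 4 calls held throughout. Of the 16 edgeR fits that each left out 1 library, Sarm1 kept its call in 8, Lifr in 7, Ddit3 in 5 and Tnfrsf12a in 4, with adjusted p of up to 0.079, 0.082, 0.133 and 0.133. All 4 were lost without any 1 of TG 2, 3 and 4, L3-L5 DRG 2 and 3 and T10-L1 DRG 2, 3 and 4, while directions stayed. Tnfrsf12a and Ddit3 were also lost with library size alone (adjusted p = 0.073 and 0.066, edgeR) and without the filter (adjusted p = 0.058 and 0.085, edgeR). None of the 10 injury transcription factors, 14 growth cone and cytoskeleton genes, 16 paralogs of the members or 12 immediate-early genes passed in edgeR (at an unadjusted p under 0.05, they were 1, 4, 3 and 5), while DESeq2 called 0, 1, 3 and 0. All 12 immediate-early genes were below 0 (median -0.77, beside 0.08 over all genes), or 10 of 12 with library size alone. Beside these values, the satellite glial genes Apoe and Fabp7 were lower in spinal ganglia, by -1.27 and -1.32 on the log2 scale, 2 of the 7 tested of that list, whose sum was 13321 to 33002 CPM in the DRG groups and 31878 to 64299 CPM in the cranial ones. Of those 7 glial genes, 5 were below 0 and 2 above. Of 7 neutrophil genes, 4 were higher, with sums of 7.25 to 1126 CPM in the DRG groups and 0.254 to 51.4 CPM in the cranial ones. The pericyte gene Rgs5 was higher too (5.34), 1 of 8 endothelial and mural genes, all 8 of which were above 0, with sums of 32.7 to 1557 CPM in the DRG groups and 59.5 to 707 CPM in the cranial ones. So was Avil (2.28), an actin-binding protein of sensory neurons, 1 of the 10 of that list, with sums of 1801 to 11917 CPM in the DRG groups and 1158 to 4973 CPM in the cranial ones. The neuron list as a whole was mixed, with 6 above 0 and 4 below (median 0.21, beside 0.08 over all genes). Over the same 16 fits Rgs5 kept its call in 16, Avil in 8, and Apoe and Fabp7 in 7 each. Their part in the values of Stmn4 was not tested.

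**Figure D3:**
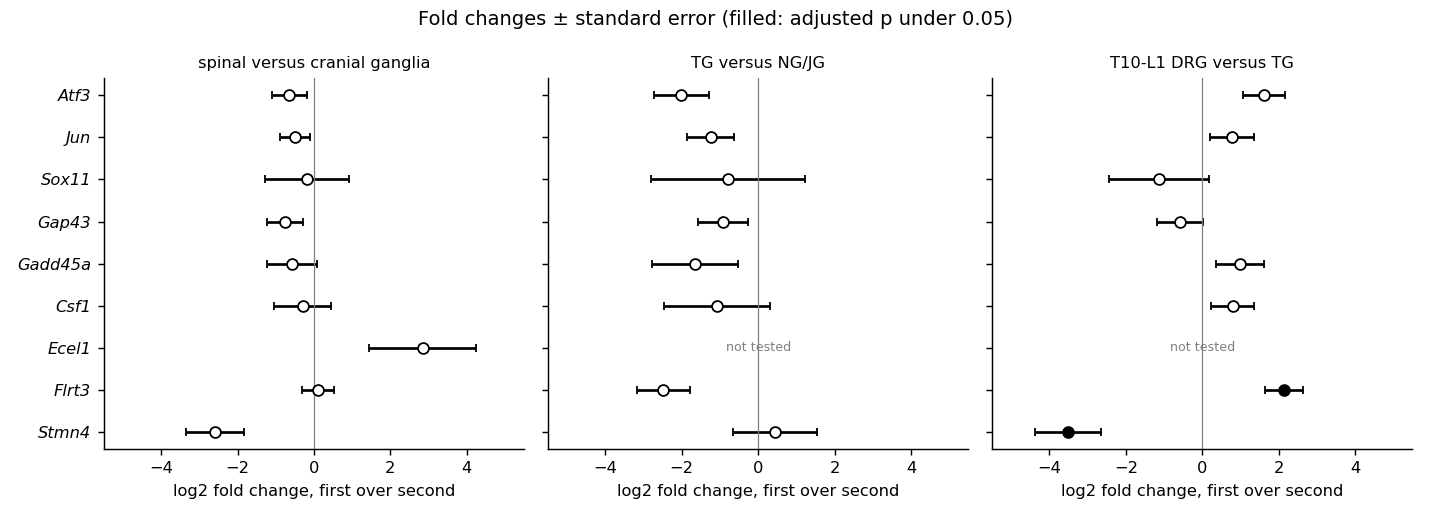
Log2 fold changes on the x axis, first group over second, with their standard error as bars, for 9 members in 3 comparisons. Filled points passed edgeR's quasi-likelihood test (adjusted p of 0.05). They are Flrt3 (2.14) and Stmn4 (-3.51) in T10-L1 DRG against TG, and Ecel1 was too low to be tested in the 2 pairs of ganglia.

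TG against NG/JG shares no library with the pair in view when the genes were chosen, and here 0 of 8 members tested passed in edgeR's quasi-likelihood test, beside 0.051% of 11769 genes. Values were lower in TG for 7 of the 8, beside 51.4% of all genes, with a median of -1.16 beside -0.05. Flrt3 was the furthest, 25.5 ± 8.62 CPM in TG and 156 ± 130 CPM in NG/JG (SD, n = 4). All 4 TG libraries were below all 4 of NG/JG, as for 4.49% of genes. Its log2 fold change was -2.48 ± 0.69 with adjusted p = 0.171 (edgeR) and 0.0177 in DESeq2, and without NG/JG 4 it was -1.58. Atf3 stood at -2.01 ± 0.73 (adjusted p = 0.318, edgeR) and Jun at -1.25 ± 0.60 (adjusted p = 0.532, edgeR), and both overlapped through TG 1. Flrt3 and Atf3 were the 2 members at an unadjusted p under 0.05 (10% of genes). DESeq2 called 1 of 9 (5.31%), and the likelihood-ratio test called 0 of 8 (2.1%). Stmn4 was at 0.44 ± 1.10. Immediate-early genes were again all on the side of Atf3, 12 of 12 below 0 with a median of -1.17, none passed in edgeR (8 at an unadjusted p under 0.05), and Nr4a1 alone was called by DESeq2 (-1.55 ± 0.48, adjusted p = 0.026). Stat3, the factor that carries gp130 cytokine signals after axon damage, was 96.0 to 208 CPM in TG and 445 to 1008 CPM in NG/JG without overlap (-2.31 ± 0.58, adjusted p = 0.0032 in DESeq2), and was not called by edgeR. In edgeR 0 genes of the other 4 lists passed either, the peptides, cytokines and receptors, growth cone, axon damage and paralog lists, with 3, 3, 0 and 2 at an unadjusted p under 0.05 and 0, 0, 1 and 1 called by DESeq2. The last of these was Stmn1 (1.79 ± 0.57), higher in TG without overlap. Of 7 satellite glial and 10 macrophage genes tested, 0 passed in edgeR (2 and 2 at an unadjusted p under 0.05, 0 and 0 by DESeq2). Macrophage sums were 2767 to 9958 CPM in TG and 25.3 to 4110 CPM in NG/JG. Other markers moved as well. All 5 oligodendrocyte genes tested were above 0 (median 5.30, sums of 479 to 2079 CPM in TG and 123 to 412 CPM in NG/JG), with 0 passing in edgeR, 3 at an unadjusted p under 0.05, and Mog, Mobp and Ermn called by DESeq2. DESeq2 also called Rgs5, Acta2 and Kcnj8 of the endothelial and mural genes and Mbp (2.03) of the Schwann cell genes higher in TG, where edgeR passed 0 of 6 and 0 of 7 (2 and 1 at an unadjusted p under 0.05). Their part in the values of Flrt3 was not tested.

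**Figure D4:**
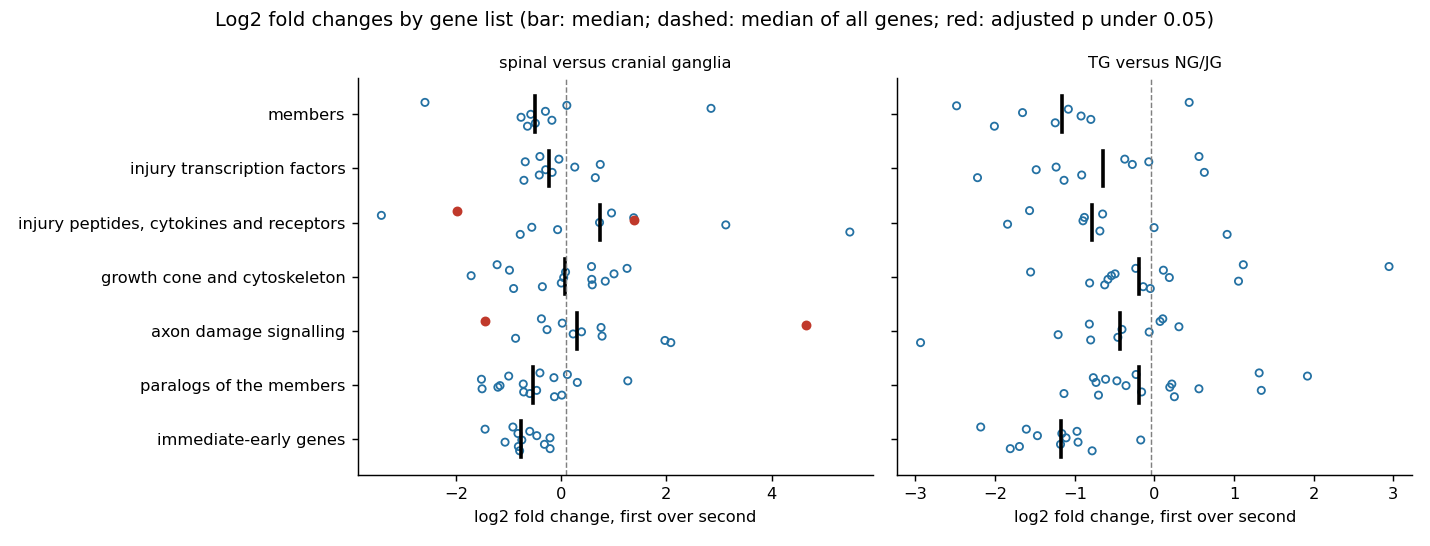
Log2 fold changes on the x axis of the tested genes of the members and 6 further lists, one list per line, in spinal against cranial ganglia (left) and TG against NG/JG (right). Bars are list medians, the dashed line is the median of all genes and red points passed an adjusted p of 0.05. All 12 immediate-early genes lie below 0 in both panels, with TMM factors (10 of 12 on the left with library size alone).

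The other pairs of ganglia each share 4 libraries with the pair in view when the genes were chosen, so they are not independent of it. In T10-L1 DRG against TG, edgeR's quasi-likelihood test called 2 of 8 members, beside 5.87% of 12914 genes. Flrt3 was higher in T10-L1 DRG (2.14 ± 0.50, adjusted p = 0.038) and Stmn4 lower (-3.51 ± 0.86, adjusted p = 0.043), with no overlap of libraries in either (T10-L1 DRG was higher without overlap in 13.2% of genes and lower in 5.3%). DESeq2 called the same 2 genes (adjusted p = 0.0014 and 0.00012, beside 12.1% of genes), and the likelihood-ratio test called them and Atf3 (3 of 8, beside 11.3%). Both calls were lost when any 1 of TG 2, 3 and 4 or of the 4 T10-L1 DRG libraries was left out, with adjusted p of 0.051 to 0.131 for Flrt3 and 0.091 to 0.163 for Stmn4, and each also left the number of all genes called at 0 to 119 in place of 758. Fitted with all 16 libraries, adjusted p was 0.086 for Flrt3 and 0.141 for Stmn4, and Stmn4 was at 0.067 with library size alone and 0.065 without the filter. Without TG 1 the calls rose to 4, with 3583 genes called in all, as Atf3 (2.16, adjusted p = 0.0096) and Jun (1.59, adjusted p = 0.013) passed beside Flrt3 (adjusted p = 0.017) and Stmn4 (adjusted p = 0.013). With all libraries Atf3 was at 1.62 ± 0.55 (adjusted p = 0.115, edgeR) and Jun at 0.78 ± 0.56. Csf1 did not overlap (0.80 ± 0.57) either, with T10-L1 DRG higher.

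Among the listed genes in this pair, Stat3 (1.72 ± 0.35, adjusted p = 0.029), Lifr (1.29 ± 0.30, adjusted p = 0.037) and Anxa1, the membrane-binding annexin (2.03 ± 0.46, adjusted p = 0.037), were higher in T10-L1 DRG by edgeR's quasi-likelihood test. Lgals1, galectin 1 (-1.78 ± 0.41, adjusted p = 0.037), and Stmn1, the stathmin related to Stmn4 (-2.43 ± 0.42, adjusted p = 0.025), were lower by the same test. None of these 5 overlapped between the groups. All 5 kept their call without TG 1, Stat3 also without T10-L1 DRG 4, and all other edgeR fits that left out 1 of the 8 libraries lost it, with adjusted p of up to 0.106 for Stat3 and Stmn1, 0.121 for Anxa1, 0.122 for Lgals1 and 0.131 for Lifr. Fitted with all 16 libraries, Lifr, Anxa1 and Lgals1 were not called (adjusted p = 0.129, 0.554 and 0.058, edgeR), and Lgals1 was lost with library size alone (0.072) and without the filter (0.053). Stmn1 was 20.2 to 33.2 CPM in T10-L1 DRG and 50.6 to 153 CPM in TG, so both stathmins were higher in TG. The counts were 1 of 10 injury transcription factors, 1 of 8 peptides, cytokines and receptors, 2 of 14 growth cone and cytoskeleton genes, 0 of 12 axon damage signalling genes (2 at an unadjusted p under 0.05), 1 of 16 paralogs and 0 of 12 immediate-early genes (3 at an unadjusted p under 0.05, 0 by DESeq2). Of all genes tested in this pair, 21.6% were at an unadjusted p under 0.05 by edgeR's quasi-likelihood test. DESeq2 called 2 of the axon damage genes without overlap, the kinase Map3k12 higher (2.86) and Ddit3 lower (-1.09). The Schwann cell gene Mbp was lower in T10-L1 DRG (-2.07, 1 of 7 of its list, with sums of 13930 to 26823 CPM in T10-L1 DRG and 22913 to 54996 CPM in TG), and the satellite glial gene Cdh19 was higher (1.96, 1 of 7). Of that glial list 5 of 7 were below 0, DESeq2 called Apoe (-1.59) and Fabp7 (-1.56) lower, and its sums were 21890 to 32142 CPM in T10-L1 DRG and 33947 to 64299 CPM in TG, with no overlap. Of 7 neutrophil genes, 3 were higher too, with sums of 104 to 1126 CPM in T10-L1 DRG and 0.254 to 51.4 CPM in TG. Rgs5 (2.02, 1 of 8 endothelial and mural genes) and the collagen gene Col3a1 (2.33, 1 of 6 fibroblast genes) were higher without overlap, while the list sums had medians of 586 and 3837 CPM in T10-L1 DRG and of 419 and 6748 CPM in TG, with overlap. Each of these edgeR calls was lost in 5 or more of the 8 fits that left out 1 library. Their part in the 2 member calls was not tested.

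In the 3 pairs left, edgeR's quasi-likelihood test called 0 members. T10-L1 DRG against NG/JG had 0 of 8 (0.0322% of 12430 genes), with 2 at an unadjusted p under 0.05 (5.91% of genes), Gap43 (-1.41 ± 0.54) and Stmn4 (-2.98 ± 1.24). DESeq2 called 1, Stmn4 (adjusted p = 0.020, beside 5.18% of genes), and the likelihood-ratio test 0 (2.69%). Atf3 differed by only -0.30 ± 0.72 here, so the 2 groups with the highest Atf3 were not told apart. L3-L5 DRG against NG/JG had 0 of 8 (0% of 12240 genes), with 3 at an unadjusted p under 0.05 (6.04%). These were Atf3 (-2.90 ± 0.77, adjusted p = 0.211, edgeR), Jun (-1.76 ± 0.54, adjusted p = 0.371, edgeR) and Flrt3 (-1.91 ± 0.65, adjusted p = 0.480, edgeR). DESeq2 and the likelihood-ratio test each called 1, Atf3 (adjusted p = 0.025 and 0.014, beside 4.46% and 2.39% of genes), and its libraries overlapped, as L3-L5 DRG 4 exceeded NG/JG 3. The Atf3 values of L3-L5 DRG entered the choice of the set, so this call is not independent of that choice. Flrt3 did not overlap, as 1.59% of genes did not with L3-L5 DRG lower. L3-L5 DRG against TG had 0 of 9 (0% of 12900 genes), with Stmn4 (-2.14 ± 0.93) at an unadjusted p under 0.05 (18.2%), and 0 were called by DESeq2 (8.41%) or the likelihood-ratio test (6.65%). Atf3 was at -0.94 ± 0.53 and Flrt3 at 0.51 ± 0.50 there.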

How the data were processed

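The authors prepared oligo dT, SMART-seq-2 cDNA, sequenced single reads, demultiplexed them (bcl2fastq in the submitters' processing notes, CASAVA in the methods), mapped them to mm9 with TopHat2 under its default settings, and obtained read counts by gene symbol from HTSeq. The deposited values are these raw counts, unnormalised, 1 file per library. The gene annotation, strand setting and tool versions are not given in the sources used here. The 5 closing lines of uncounted reads per file stayed out of library sizes, and 29.6% to 66.6% of uniquely aligned reads had no gene.

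Each pair of ganglia was fitted on its own 8 libraries, and spinal against cranial on all 16, with edgeR 4.0.16 (R 4.3.3; TMM factors, filterByExpr, quasi-likelihood test, prior count 0.125, Benjamini-Hochberg over all genes tested). DESeq2 1.42.0 and edgeR's likelihood-ratio test were alternatives, along with other scalings, no filter, a replicate block, all libraries in one fit and each library left out. The fits were run on simulated data with known changes. There the recovered fold changes were checked for every test. Calls of unchanged genes were held to a limit for the edgeR tests only, not for DESeq2. RPKM used exon lengths of GENCODE M1 on NCBIM37 (mm9). Levels on a log scale used a pseudocount of 1. Promoter windows are from RefSeq on another build, GRCm38.p6, and were matched by symbol (8 of 10). Tables and plots used Python 3.11.15, pandas 2.3.3 and matplotlib 3.10.9.

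The members and lists were chosen with earlier results of these data known. All members are named, with up to 4 genes a list by largest log2 fold change among those passing edgeR, or else DESeq2 without overlap, the 5 non-members most like Atf3, and markers that moved beside a result.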

Additional observations from a re-analysis of the deposited data

Results flagged for a closer look

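In 37 sets of 4 libraries, a member in a kind of ganglion, the highest or lowest library was compared with the others by Dixon's ratio, and 3 stood apart. Chance gives about 1 in 20 for normally distributed values, whereas these were CPM with no log taken. Jun in TG 1 was at 3317 CPM, against 541 to 932 CPM in the other TG libraries. Flrt3 in TG 2 was at 38.4 CPM, against 19.8 to 22.2 CPM in the other TG libraries. Sprr1a in L3-L5 DRG 4 was at 0.211 CPM, which is 1 read, with 0 reads in the other 3. Any read beside 0 in the other 3 gives the highest ratio, so this flag was fixed by the zeros.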

How the results depend on the processing

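Of the alternatives to the counts of members, 91 stayed within 1.5-fold and 19 did not. DESeq2 called 1 member in spinal against cranial ganglia, in TG against NG/JG, in T10-L1 DRG against NG/JG and in L3-L5 DRG against NG/JG, in place of 0. The likelihood-ratio test called 1 in spinal against cranial and in L3-L5 DRG against NG/JG, and all 16 libraries in one fit called 1 in TG against NG/JG, Flrt3. In T10-L1 DRG against TG the 2 calls became 1 with library size alone or without the filter, 0 with the replicate block or all 16 libraries in one fit, and 0 to 4 over libraries left out. Where not stated otherwise the cause was not tested; leaving out a library also leaves fewer samples.

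Flrt3 and Stmn4 kept their direction in T10-L1 DRG against TG under every alternative. Scaling by library size alone shifted the median of all genes from 0.08 to 0.33 in spinal against cranial ganglia and from 0.03 to 0.39 in both DRG groups against TG. It turned Sox11 to 0.16 in spinal against cranial, and Gap43 to 0.30 and Csf1 to 0.0067 in L3-L5 DRG against TG. Without the filter Gap43 was at 0.15 there, and with TG 1 and L3-L5 DRG 4 left out together, an alternative chosen after seeing the data, at 0.060. With those 2 libraries out, 0 members were called in both comparisons where this was tried. Over libraries left out, the log2 fold changes that changed sign ranged as follows. In T10-L1 against L3-L5 DRG, Gap43 ranged from -0.77 to 0.015 and Ecel1 from -1.80 to 0.094. In spinal against cranial, Sox11 ranged from -0.41 to 0.56, Gadd45a from -0.93 to 0.31, Csf1 from -0.53 to 0.19 and Flrt3 from -0.062 to 0.56. In TG against NG/JG, Sox11 ranged from -1.60 to 0.67, Gadd45a from -2.15 to 0.12 and Stmn4 from -0.073 to 0.72. In T10-L1 DRG against NG/JG, Atf3 ranged from -0.71 to 0.55, Jun from -0.68 to 0.022, Gadd45a from -1.25 to 1.19, Csf1 from -0.64 to 0.79 and Flrt3 from -0.57 to 0.64. In T10-L1 DRG against TG, Gap43 ranged from -0.86 to 0.17. In L3-L5 DRG against TG, Jun ranged from -0.79 to 0.23, Gap43 from -0.57 to 0.68 and Ecel1 from -1.001 to 0.62.

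The labels number the libraries of each ganglion 1 to 4, but of 24 same-numbered pairs only 6 had deviations correlated above 0.1 (range -0.12 to 0.18). The main fits therefore did not take the numbers as pairs. Each NG/JG library did correlate best with the L3-L5 DRG library of its own number. So did TG 1, 2 and 4 with T10-L1 DRG, whereas no L3-L5 DRG library did with T10-L1 DRG. Such correlations cannot exclude that same-numbered libraries came from the same mice. With the replicate number as a block, the calls in T10-L1 DRG against TG went from 2 to 0, the number of all genes called in spinal against cranial from 208 to 5, and the block turned Sox11 to 0.38 in spinal against cranial, Ecel1 to 0.29 in L3-L5 DRG against TG and, in T10-L1 DRG against NG/JG, Atf3 to 0.063, Gadd45a to 0.88, Csf1 to 0.75 and Flrt3 to 0.046. It also ended each edgeR call of a listed gene named in the text. Sprr1a and Ecel1 were low, with more than 3 counts in 1 and 7 of the 16 libraries and 0 reads in 13 and 8. Ecel1 had 23 counts in TG 2, with 5082985 reads on genes, and 0 in T10-L1 DRG 4, with 13333318. The part of depth in these values was not tested.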
